A study of Mus musculus with 11 samples.

Results

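Fatty acid uptake and oxidation was followed through 34 genes in the tibialis anterior, a fast hindlimb muscle of the mouse, with and without denervation. The genes were chosen by symbol to cover the route from the cell surface to acetyl-CoA: uptake, activation, the carnitine shuttle and its malonyl-CoA control, the steps of beta-oxidation with their electron carriers, and the peroxisomal, thioesterase and fuel-switch genes beside them. Each was read from 1 probe set, the one with the highest mean signal over the arrays among those that the supplied annotation gives to that gene alone. That rule reached 32 of the 34, all 32 passed the filter on dim probe sets, and they stood among 12214 genes tested. Acsl1 and Cpt1b, the usual muscle forms of acyl-CoA synthetase and of the outer carnitine palmitoyltransferase, are not analysed here, because the annotation used here gives no probe set to Acsl1 and gives the one for Cpt1b to another gene as well.

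Total RNA was measured on 11 Affymetrix arrays. The mutant genotype, written runx1f/-; MCK::cre, gave 3 denervated and 2 innervated arrays, and the control genotype, runx1f/-, gave 3 denervated and 3 innervated arrays. All 4 groups therefore share the runx1f/- background, a floxed and a null allele of the transcription factor gene Runx1, and no group is wild type. MCK::cre places Cre recombinase under the muscle creatine kinase promoter, which is active in muscle fibres, so other cells of the muscle keep the floxed allele, and Cre itself and the loss of Runx1 cannot be told apart. Denervation lasted 3 days per the sample titles, although a treatment note on denervated control 3 gives 5 days, and the labels give no age. They also leave unsaid whether arrays of a group come from different mice, and the p-values cover only the spread of these samples, which may be technical.

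As background, long-chain fatty acids enter the fibre with the help of surface and cytosolic carriers, are joined to coenzyme A, and cross into the mitochondrion as carnitine esters. Inside, acyl-CoA dehydrogenases, hydratases, hydroxyacyl-CoA dehydrogenases and thiolases shorten the chain in repeated cycles and hand electrons to the respiratory chain. Malonyl-CoA blocks the carnitine step, and pyruvate dehydrogenase kinases hold back the use of glucose, so that both set which fuel a fibre burns.

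Several features of the arrays bear on every comparison. The deposited signals are scaled so that each array has the same trimmed mean, and a change is therefore one relative to the rest of the RNA on that array. The externally added control RNAs read lower on denervated arrays (mean log2 signal 13.2 to 13.7) than on innervated arrays (13.8 to 14.3). Centring each array on those control RNAs, called spike-in centring below, gave a median log2 change of all genes with denervation of 0.46 in mutant and 0.82 in control muscle, where the authors' scaling gives -0.01 in each. Centring on each array's median signal gave 0.29 in mutant and 0.07 in control muscle. The control RNAs used are the bio and cre hybridization controls of the array, which are added to the labelled sample and not to the muscle. Centring on them therefore cannot measure RNA per cell. Which scaling is closer to RNA per cell was not tested. None of them is shown to measure it, and spike-in centring is used only to show how far calls depend on the scaling. In whole muscle a lower signal from fewer cells of a type cannot be told apart from less RNA per cell. The ratio of 3′ to 5′ signal of beta-actin was 0.07 to 0.30 in log2 units on denervated arrays and -0.05 to 0.11 on innervated arrays. Muscle identity was clear, since the 14 muscle fibre markers all read 7565 or more on every array. Their summed signal was 1785680 to 2217440 on denervated against 3046530 to 3531810 on innervated mutant arrays, and 1832430 to 2552810 against 2955990 to 3314740 on control arrays, and it moved the same way as most genes described below. Macrophage and leukocyte markers moved the other way, with sums of 131041 to 146124 on denervated against 33581 to 36130 on innervated mutant arrays, and 109344 to 151319 against 39746 to 50483 on control arrays. None of the marker genes was at 0 on any array. The part of cell makeup in the results was not tested. The targeted gene gave no firm check of the genotype labels. Of 6 Runx1 probe sets none passed between genotypes in denervated muscle (smallest adjusted p = 0.165), and the labels do not place their probes relative to the deleted part. The brightest read 20403 to 23185 in denervated mutant and 23499 to 25898 in denervated control muscle, and 2 dimmer ones were also lower in mutant without overlap, at 1209 to 2217 against 2619 to 3858 and at 1145 to 1493 against 1574 to 3049. The remaining Runx1 probe sets overlapped between genotypes. Among them a bright one read 16005.5 to 21841 in denervated mutant against 16507 to 20907 in denervated control muscle, a log2 difference of 0.0089.

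Many genes of the route were lower after denervation and few were higher, as scaled by the authors. In mutant muscle 13 of the 32 genes fell, 3 rose and 16 did not pass the test, where 13.8% of all genes tested were called lower and 16.7% higher. In control muscle 21 fell, 2 rose and 9 did not pass, against 16.4% of all genes called lower and 18.1% higher. Without denervated control 3, whose note gives 5 days, 20 fell and 2 rose in control muscle. The test throughout is limma on log2 signals, with p adjusted over all probe sets tested and a threshold of 0.05. The median log2 change of the 32 genes was -0.42 in mutant and -0.69 in control muscle, and that of all genes was -0.01 in each. All denervated arrays lay below all innervated arrays for 19 of the 32 genes in mutant muscle, against 29.5% of all genes, and for 21 in control muscle, against 22.6% of all genes. They lay above for 5 in mutant muscle (31.2% of all genes) and for 3 in control muscle (24.2% of all genes). Of the genes called lower, 12 were shared, which makes up 92.3% of those in mutant muscle and 57.1% of those in control muscle, and none was called in opposite directions. With spike-in centring 5 genes fell and 5 rose in mutant muscle, with a median of 0.056. Of all 26170 probe sets tested, 1017 were called lower and 6969 higher there. In control muscle 5 genes fell and 11 rose, with a median of 0.14, where 718 of all probe sets were called lower and 14851 higher. The spike-in counts of other lists below stand against the same totals. The 5 that fell in both genotypes with both scalings were Fabp3, Acadm, Hadh, Acaa2 and Ucp3. The genes that rose with both scalings were Acsl3, Acacb and Acot2 in mutant muscle and Acsl3 and Acsl6 in control muscle. Relative to the median of all genes the 32 genes stood at -0.41 in mutant and -0.69 in control muscle, a distance that no centring changes.

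**Figure D1:**
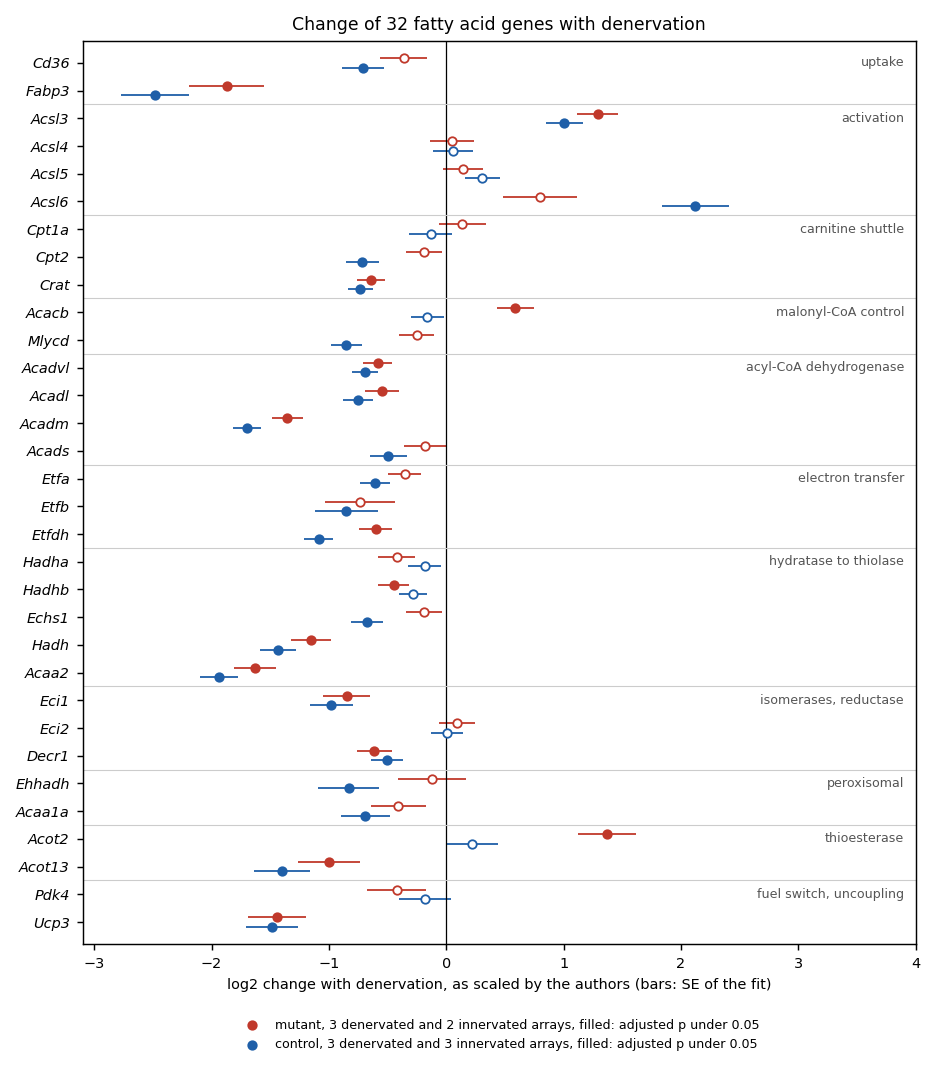
Log2 change of signal with denervation (x axis) for each of the 32 genes measured (y axis, ordered by step), in mutant and control muscle; points are limma estimates, bars are standard errors, filled points passed the test, and the vertical line marks 0. Most points lie left of 0 as scaled by the authors, Fabp3, Acaa2, Acadm, Ucp3 and Hadh farthest; with spike-in centring 10 of the 21 genes called lower in control muscle and 1 of the 13 in mutant muscle change sign.

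At the uptake step the heart-type fatty acid binding protein gene Fabp3, whose product carries fatty acids through the cytosol, had the largest fall of the set in both genotypes. Fabp3 signals were 21511, 21882 and 25583 in denervated mutant muscle, against 62708 and 112193 in innervated mutant muscle. Fabp3 signals in denervated control muscle were 12409, 10988 and 17250.4, against 91310.5, 45125 and 100153 in innervated control muscle. The groups did not overlap in either genotype, though innervated control 2 read well below the other innervated control arrays. The log2 change was -1.87 ± 0.32 (SE, adjusted p = 0.000895) in mutant and -2.48 ± 0.29 (SE, adjusted p = 2.9e-05) in control muscle, 3.66-fold and 5.59-fold lower, and with spike-in centring it stayed negative, at -1.40 and -1.65. Without innervated mutant 2 the mutant change was -1.45, a smaller fall than those of Ucp3 (-1.77) and Acaa2 (-1.47) in the same run. The first rank of Fabp3 in mutant muscle therefore depends on that array. A dimmer Fabp3 probe set, at group means of 438.5 to 1554, also passed as lower in both genotypes (adjusted p = 0.0473 in mutant and 0.00264 in control muscle), but its denervated control mean is no brighter than the trp controls, bacterial sequences whose signals were 13.8 to 440 over all arrays, so the size of that fall is not given.

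Cd36, the surface fatty acid translocase, is made by endothelial cells, adipocytes and macrophages as well as by fibres, and it fell less. Cd36 signals were 29962, 43169.7 and 37954 in denervated mutant muscle, against 52051 and 42719 in innervated mutant muscle. Cd36 signals in denervated control muscle were 28207, 27512 and 26348, against 40159.5, 59084 and 37724 in innervated control muscle. The control groups did not overlap, while in mutant muscle denervated array 2 lay just above innervated array 2. Its log2 change was -0.36 ± 0.20 (SE, adjusted p = 0.202) in mutant muscle and -0.71 ± 0.18 (SE, adjusted p = 0.00922) in control muscle, where spike-in centring turned both to 0.11 and 0.12. Its other probe sets, at lower signal, fell in both genotypes as scaled by the authors, by 1.48-fold and 1.91-fold in mutant muscle and by 1.86-fold and 2.52-fold in control muscle. Beside it, 6 of 13 endothelial markers fell in each genotype and none rose as scaled by the authors, while with spike-in centring none fell, 1 rose in mutant and 2 rose in control muscle. Their summed signal was 47244 to 50583 on denervated and 68913 to 70071 on innervated mutant arrays, and 44248 to 51088 on denervated and 64529 to 72039 on innervated control arrays. Their part in the Cd36 result was not tested.

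The promoters of Fabp3, the gene with the largest fall in both genotypes, and of the gene with the largest rise in control muscle, Acsl6, are shown because they mark the extremes of the set there; in mutant muscle the largest rise was that of Acot2, and Acsl6 did not pass. Both are the 250 bases before the RefSeq start site in GRCm38.p6, 5′ to 3′ on the gene's strand, which is plus for both. The Fabp3 window is chr4:130308488-130308737, with capitals marking the E-box letters CANNTG. The Acsl6 window, upstream of the outermost of 3 listed starts, is chr11:54303574-54303823, with capitals marking the nuclear receptor hexamer AGGTCA on either strand and the estrogen-related receptor element TNAAGGTCA that holds it. Among the windows of those starts, the one with the most matches to TNAAGGTCA was taken, so its presence there is part of the choice.

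Fabp3: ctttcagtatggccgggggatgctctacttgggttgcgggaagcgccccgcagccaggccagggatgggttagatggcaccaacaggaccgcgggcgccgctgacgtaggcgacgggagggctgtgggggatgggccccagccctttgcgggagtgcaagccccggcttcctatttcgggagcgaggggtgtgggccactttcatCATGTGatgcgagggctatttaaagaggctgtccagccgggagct
Acsl6: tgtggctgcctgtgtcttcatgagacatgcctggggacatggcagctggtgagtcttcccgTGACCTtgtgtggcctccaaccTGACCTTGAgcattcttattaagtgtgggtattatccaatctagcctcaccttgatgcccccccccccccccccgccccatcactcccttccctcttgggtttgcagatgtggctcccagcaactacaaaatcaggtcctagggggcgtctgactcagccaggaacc

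The Acsl6 window holds the hexamer at 2 places, both read here as its reverse complement, and at the second of them the longer element overlaps it. It also holds 2 E-boxes, which are left in lower case. Fabp3 holds no hexamer and 1 E-box in its window. Searched on both strands of the same window, the hexamer was in 7 of the 29 genes with a promoter in the table (24.1%) and in 15.8% of 27025 genes. Those with it were Acadm, Acadvl, Acsl6, Cd36, Cpt1a, Echs1 and Ucp3. TNAAGGTCA, which contains the hexamer, was in 1 of 29 (3.45%), Acsl6, and in 1.3% of all genes. CANNTG was in 18 of 29 (62.1%) and in 69.3% of all genes, and the GC box GGGCGG in 17 of 29 (58.6%) and in 35.4% of all genes. A match of letters is a description of the window and shows no binding.

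Activation to acyl-CoA was the step with no gene called lower in either genotype from the probe sets used. It was read from 4 of its 5 genes, without Acsl1, the usual muscle form. The long-chain acyl-CoA synthetases divide by isoform. Acsl6, known from brain and muscle, and Acsl3, which sits on endoplasmic reticulum and lipid droplets, moved with denervation as described below. Acsl4, which prefers arachidonate, and Acsl5 did not pass the test as scaled by the authors. Acsl6 signals were 7368, 12827 and 15246 in denervated mutant muscle, against 6172 and 6831 in innervated mutant muscle. Acsl6 signals in denervated control muscle were 23113, 53447 and 34999, against 7915, 8512 and 7745 in innervated control muscle. All denervated arrays were above all innervated arrays in both genotypes, and the denervated control arrays were the highest and the most spread. The rise was 4.35-fold in control muscle, a log2 change of 2.12 ± 0.28 (SE, adjusted p = 9.94e-05), and the change was 0.80 ± 0.32 (SE, adjusted p = 0.082) in mutant muscle, which did not pass. Without denervated mutant 1 the mutant change was 1.10 (adjusted p = 0.0185), it also passed without denervated control 1 or 2 (0.0486 and 0.049), and with spike-in centring 1.27 (adjusted p = 0.0038). It did not pass in 15 of 21 alternative analyses, which gave -0.14 to 1.27 (adjusted p up to 0.749), and it was 0.58 without denervated mutant 3. The control rise passed in all 22 alternatives, at log2 changes of 0.96 to 2.95. A second Acsl6 probe set, at group means of 434.1 to 895.9, gave no rise: it passed as lower in mutant muscle (adjusted p = 0.0398), and its control log2 change was -0.20 (adjusted p = 0.677). Its denervated mutant mean, the lowest, is no brighter than the trp controls, so no fold is given for it.

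Acsl3 signals were 8746, 8344 and 7727 in denervated mutant muscle, against 3635 and 3122 in innervated mutant muscle. Acsl3 signals in denervated control muscle were 7545, 6827 and 5689, against 2773, 3674 and 3528 in innervated control muscle. No denervated array overlapped an innervated one, and in denervated muscle every mutant array was above every control array. Acsl3 rose 2.45-fold in mutant muscle, a log2 change of 1.29 ± 0.18 (SE, adjusted p = 0.000155), and 2.01-fold in control muscle, a log2 change of 1.01 ± 0.16 (SE, adjusted p = 0.000345), and it rose under spike-in centring too. A second probe set rose 2.03-fold in mutant and 2.14-fold in control muscle, and another, at group means of 519.2 to 649.1, gave folds of 0.998 and 0.975.

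Acsl4 signals were 10738, 7965 and 8702 in denervated mutant muscle, against 9201 and 8336 in innervated mutant muscle. Acsl4 signals in denervated control muscle were 7568, 8101 and 10127, against 6823, 9487 and 8468 in innervated control muscle. The groups overlapped in both genotypes. The log2 change of Acsl4 was 0.049 ± 0.19 (SE, adjusted p = 0.873) in mutant and 0.06 ± 0.17 (SE, adjusted p = 0.829) in control muscle, and with spike-in centring it was 0.52 (adjusted p = 0.103) and 0.89 (adjusted p = 0.00194). Acsl5 had log2 changes of 0.14 ± 0.17 (SE, adjusted p = 0.564) in mutant and 0.31 ± 0.15 (SE, adjusted p = 0.147) in control muscle, and all its denervated control arrays lay above the innervated ones. With spike-in centring Acsl5 passed as higher in both, at 0.62 (limma adjusted p = 0.0454) and 1.14 (adjusted p = 0.000196).

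**Figure D2:**
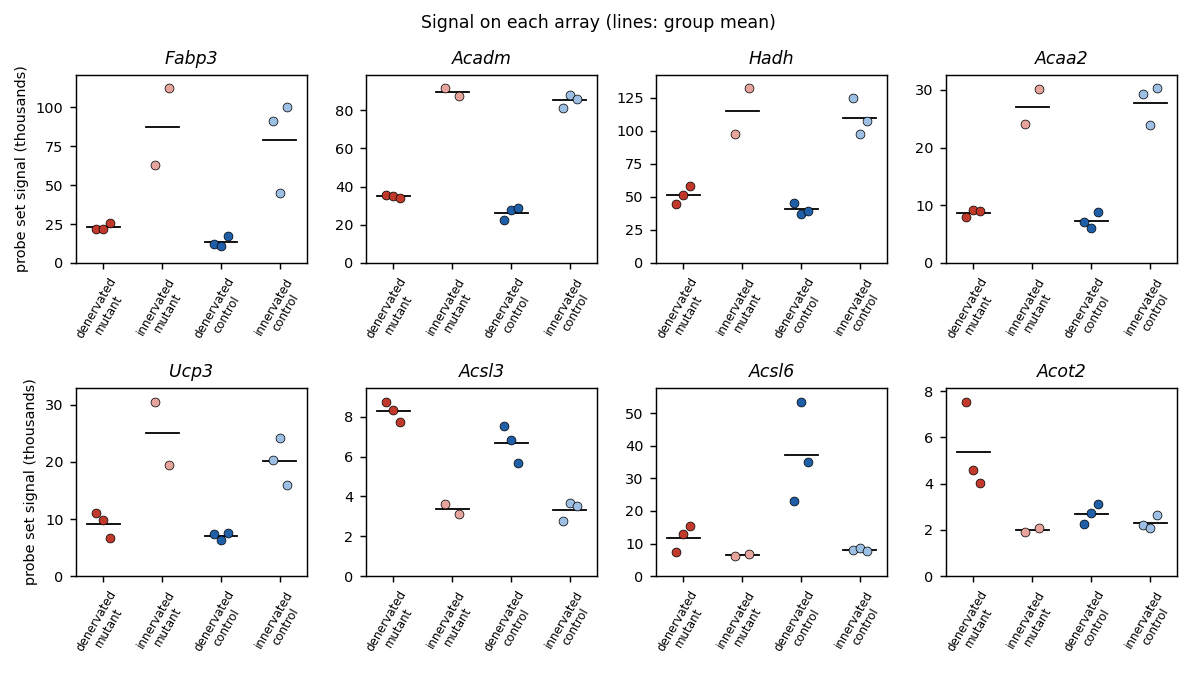
Probe set signal (y axis, linear from 0) on each of the 11 arrays for 8 genes, by group (x axis); points are arrays and lines are group means. Fabp3, Acadm, Hadh, Acaa2 and Ucp3 sit lower on every denervated array, a direction kept by spike-in centring, Acsl3 sits higher on every denervated array, Acsl6 is highest in denervated control muscle, and Acot2 is highest in denervated mutant muscle.

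In the carnitine shuttle, Cpt1a makes the acylcarnitine at the outer membrane in liver and most other tissues, Cpt2 turns it back to acyl-CoA inside, and Crat trims acetyl-CoA to acetylcarnitine. Cpt1a signals were 3708, 3359 and 2899.8 in denervated mutant muscle, against 3762 and 2402 in innervated mutant muscle. Cpt1a signals in denervated control muscle were 2541, 2641 and 2703, against 2825, 3299 and 2571 in innervated control muscle. Arrays overlapped in both genotypes. Cpt1a had log2 changes of 0.14 ± 0.20 (SE, adjusted p = 0.657) in mutant and -0.13 ± 0.18 (SE, adjusted p = 0.631) in control muscle, the second turning to 0.70 (adjusted p = 0.014) with spike-in centring. The mutant sign was not settled. It ranged from -0.19 to 0.46 on leaving out single arrays and from -0.72 to 0.61 over all 21 alternative analyses. It passed in none of them (limma adjusted p 0.0762 to 0.892).

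Cpt2 signals were 13299, 15739 and 16100.1 in denervated mutant muscle, against 15518 and 18826 in innervated mutant muscle. Cpt2 signals in denervated control muscle were 10062, 10549 and 12275, against 19214, 16242 and 18529.5 in innervated control muscle. The control groups were apart and the mutant groups overlapped. Cpt2 fell in control muscle by 1.64-fold, a log2 change of -0.72 ± 0.14 (SE, adjusted p = 0.00173) that spike-in centring turned to 0.11, and its log2 change was -0.19 ± 0.16 (SE, adjusted p = 0.4) in mutant muscle, where spike-in centring gave 0.28. Averaged with its second, dim probe set, the control change was -0.41 (adjusted p = 0.276).

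Crat signals were 20915, 21008 and 21285 in denervated mutant muscle, against 32483 and 33392 in innervated mutant muscle. Crat signals in denervated control muscle were 22054, 21986 and 23325, against 35126, 38712 and 38362 in innervated control muscle. The arrays within each Crat group lay close together and the groups were apart. Its log2 change was -0.64 ± 0.12 (SE, adjusted p = 0.00149) in mutant and -0.73 ± 0.11 (SE, adjusted p = 0.000185) in control muscle, 1.56-fold and 1.66-fold lower, and with spike-in centring -0.17 and 0.094, neither past the threshold.

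Malonyl-CoA, which blocks the carnitine step, is made at the mitochondrion by the carboxylase Acacb and removed by the decarboxylase Mlycd. Acacb signals were 29038, 26096 and 30941 in denervated mutant muscle, against 19091 and 19018 in innervated mutant muscle. Acacb signals in denervated control muscle were 20729, 16503 and 23153, against 20632, 22409.7 and 24028 in innervated control muscle. All denervated mutant arrays were above the innervated mutant arrays, and the control groups overlapped. Acacb rose 1.5-fold in mutant muscle, a log2 change of 0.59 ± 0.16 (SE, adjusted p = 0.015), and its control log2 change was -0.16 ± 0.14 (SE, adjusted p = 0.431), which spike-in centring turned to 0.67 (adjusted p = 0.00935). The mutant call was lost without denervated mutant 3 (adjusted p = 0.0585), innervated mutant 1 (0.071) or innervated mutant 2 (0.0751), and with the mean of all its probe sets, where the change was 0.37 (adjusted p = 0.272).

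Mlycd signals were 6559, 5984 and 6308 in denervated mutant muscle, against 7224 and 7736 in innervated mutant muscle. Mlycd signals in denervated control muscle were 4119.6, 4245 and 4742, against 8051, 6921 and 8771 in innervated control muscle. Denervated arrays were below innervated arrays in both genotypes, the control ones more so. The log2 change of Mlycd was -0.25 ± 0.15 (SE, adjusted p = 0.239) in mutant and -0.85 ± 0.13 (SE, adjusted p = 0.000356) in control muscle, and with spike-in centring 0.22 and -0.022. The ratio of Mlycd to Acacb on the same array does not depend on the scaling of arrays. It was lower after denervation by a log2 difference of -0.76 (-0.84 in mutant and -0.69 in control muscle; exact permutation within genotype, two-sided p = 0.005, the smallest that 200 arrangements allow, adjusted over 5 ratios 0.0125). In 2 of the runs that left out a single array this call was lost (adjusted p up to 0.05).

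The acyl-CoA dehydrogenases open each cycle of beta-oxidation and differ by the chain length they take. Acadm (medium chains), Acadl (long), Acadvl (very long) and Acads (short) all fell in control muscle as scaled by the authors, and all but Acads passed in mutant muscle too. Acadm signals were 35531, 35206 and 34045 in denervated mutant muscle, against 91446 and 87509 in innervated mutant muscle. Acadm signals in denervated control muscle were 22705, 27664 and 28610.1, against 81406, 88039.7 and 86046 in innervated control muscle. Acadm arrays of a group lay close together and the groups were far apart. It was 2.56-fold lower in mutant muscle, a log2 change of -1.36 ± 0.13 (SE, adjusted p = 9.71e-06), and 3.25-fold lower in control muscle, a log2 change of -1.70 ± 0.12 (SE, adjusted p = 3.5e-07), and it was still lower with spike-in centring, by log2 changes of -0.88 and -0.87. Acadl fell, with log2 changes of -0.55 ± 0.14 (SE, adjusted p = 0.0137) in mutant and -0.76 ± 0.13 (SE, adjusted p = 0.000662) in control muscle, and so did Acadvl, with -0.59 ± 0.12 (SE, adjusted p = 0.00393) and -0.69 ± 0.11 (SE, adjusted p = 0.000424); with spike-in centring these were -0.072, 0.073, -0.11 and 0.13, so the control sign turned for both. The mutant call of Acadl was lost without innervated mutant 2 (adjusted p = 0.0943). Acads had a log2 change of -0.18 ± 0.18 (SE, adjusted p = 0.483) in mutant muscle and fell in control muscle, with -0.49 ± 0.16 (SE, adjusted p = 0.0337), where spike-in centring turned it to 0.34; that call was lost without denervated control 1 or 2 or innervated control 1 or 3 (adjusted p 0.0676 to 0.137). All 4 genes had every denervated array below every innervated one in both genotypes.

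Electrons from those dehydrogenases pass to the electron transfer flavoprotein, whose subunits are Etfa and Etfb, and then to its membrane oxidoreductase, Etfdh, which feeds ubiquinone. Etfdh signals were 20799, 23481 and 25580.2 in denervated mutant muscle, against 36937 and 33552 in innervated mutant muscle. Etfdh signals in denervated control muscle were 19855, 16183 and 18789, against 38979, 38909 and 38213 in innervated control muscle. The groups did not overlap in either genotype. Etfdh was 1.52-fold lower in mutant muscle, a log2 change of -0.60 ± 0.14 (SE, adjusted p = 0.00668), and 2.12-fold lower in control muscle, a log2 change of -1.09 ± 0.13 (SE, adjusted p = 2.78e-05), and with spike-in centring it did not pass, at -0.13 and -0.26. Without innervated mutant 1 the mutant change was -0.53 (adjusted p = 0.0628). Etfa had log2 changes of -0.36 ± 0.14 (SE, adjusted p = 0.0817) in mutant and -0.61 ± 0.13 (SE, adjusted p = 0.0027) in control muscle, and Etfb -0.73 ± 0.30 (SE, adjusted p = 0.0873) and -0.85 ± 0.27 (SE, adjusted p = 0.0284). With spike-in centring Etfa turned to 0.12 and 0.22, and Etfb stood at -0.26 and -0.023. The Etfb call in control muscle was lost without denervated control 1 or 2 or innervated control 1 or 3 (adjusted p 0.0698 to 0.117), and in mutant muscle Etfb and Etfa passed without innervated control 2 (adjusted p = 0.013 and 0.0409). The ratio of Etfa to Etfb on the same array differed by 0.31 after denervation (exact permutation, two-sided p = 0.085, adjusted 0.106).

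The enzymes of the later steps of the cycle act at the inner membrane or in the matrix. The trifunctional protein of the inner membrane, with subunits Hadha and Hadhb, handles long chains, and the matrix enzymes Echs1 (hydratase), Hadh (hydroxyacyl-CoA dehydrogenase) and Acaa2 (thiolase) handle shorter ones. Hadh signals were 44300.2, 51576 and 58267 in denervated mutant muscle, against 97915 and 132011 in innervated mutant muscle. Hadh signals in denervated control muscle were 45047, 37376 and 39458, against 124664, 97477 and 107415 in innervated control muscle. Every denervated array was below every innervated one. Hadh was 2.23-fold lower in mutant muscle, a log2 change of -1.15 ± 0.17 (SE, adjusted p = 0.00031), and 2.7-fold lower in control muscle, a log2 change of -1.43 ± 0.15 (SE, adjusted p = 1.6e-05), and it was lower with spike-in centring, at -0.68 and -0.60.

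Acaa2 signals were 7929, 9215 and 8945 in denervated mutant muscle, against 24037 and 30144 in innervated mutant muscle. Acaa2 signals in denervated control muscle were 7102, 6032 and 8793, against 29226, 23905 and 30259 in innervated control muscle. The gap between the Acaa2 groups was wide in both genotypes. It fell 3.1-fold in mutant muscle, a log2 change of -1.63 ± 0.18 (SE, adjusted p = 3.03e-05), and 3.82-fold in control muscle, a log2 change of -1.93 ± 0.16 (SE, adjusted p = 1.97e-06), and spike-in centring gave -1.16 and -1.11. Echs1 had log2 changes of -0.19 ± 0.15 (SE, adjusted p = 0.381) in mutant and -0.68 ± 0.14 (SE, adjusted p = 0.0021) in control muscle, with 0.28 and 0.15 after spike-in centring.

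Hadha signals were 20926, 22878 and 24789.7 in denervated mutant muscle, against 27618 and 33908 in innervated mutant muscle. Hadha signals in denervated control muscle were 28457, 22972 and 24513, against 25501, 28556 and 32251 in innervated control muscle. Mutant arrays did not overlap and control arrays did. Hadha had log2 changes of -0.42 ± 0.16 (SE, adjusted p = 0.0636) in mutant and -0.18 ± 0.14 (SE, adjusted p = 0.366) in control muscle, the second 0.65 (adjusted p = 0.00874) with spike-in centring. Without innervated control 2 it passed in mutant muscle (adjusted p = 0.048). Hadhb fell in mutant muscle, with a log2 change of -0.45 ± 0.13 (SE, adjusted p = 0.0241), and had -0.28 ± 0.12 (SE, adjusted p = 0.0929) in control muscle, and spike-in centring gave 0.023 and 0.55. The mutant call of Hadhb was lost without denervated mutant 1 or 2 or innervated mutant 2 (adjusted p 0.058 to 0.17). A second Hadhb probe set fell 1.60-fold in mutant and 1.55-fold in control muscle, as scaled by the authors. The ratio of Hadha to Hadhb on the same array was nearly level, with a difference of 0.06 after denervation (exact permutation, two-sided p = 0.38).

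Unsaturated fatty acids need the isomerases Eci1 and Eci2 and the reductase Decr1. Eci1 fell, with log2 changes of -0.85 ± 0.20 (SE, adjusted p = 0.00763) in mutant and -0.98 ± 0.18 (SE, adjusted p = 0.00118) in control muscle, and so did Decr1, with -0.61 ± 0.15 (SE, adjusted p = 0.00863) and -0.50 ± 0.13 (SE, adjusted p = 0.0118); with spike-in centring neither passed, and Decr1 in control muscle turned to 0.32. A dimmer Decr1 probe set fell more, by 2.31-fold in mutant and 2.54-fold in control muscle as scaled by the authors. Both mutant calls were lost without innervated mutant 2 (adjusted p = 0.0973 for Eci1 and 0.058 for Decr1), and the Decr1 control call without innervated control 1 (adjusted p = 0.0529). Eci2 signals were 17435, 17417 and 17281 in denervated mutant muscle, against 16431 and 16169 in innervated mutant muscle. Eci2 signals in denervated control muscle were 13270.0, 13275 and 15059.7, against 15268, 11202 and 15355 in innervated control muscle. Eci2 groups overlapped in control muscle, where innervated control 2 was the lowest array, and in mutant muscle every denervated array was above the innervated ones. It had log2 changes of 0.092 ± 0.16 (SE, adjusted p = 0.696) in mutant and 0.0049 ± 0.14 (SE, adjusted p = 0.985) in control muscle, and with spike-in centring 0.57 (adjusted p = 0.103) and 0.83 (adjusted p = 0.00511).

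In the peroxisome, the bifunctional enzyme Ehhadh and the thiolase Acaa1a shorten very long chains. Ehhadh had log2 changes of -0.12 ± 0.29 (SE, adjusted p = 0.788) in mutant and -0.83 ± 0.26 (SE, adjusted p = 0.0284) in control muscle, and Acaa1a -0.41 ± 0.23 (SE, adjusted p = 0.219) and -0.69 ± 0.21 (SE, adjusted p = 0.0247), so both fell in control muscle as scaled by the authors. With spike-in centring Ehhadh was at -0.0026 and Acaa1a at 0.14 in control muscle. The Ehhadh call was lost without denervated control 1 or 2 or innervated control 2 or 3 (adjusted p 0.0682 to 0.11), and the Acaa1a call without denervated control 1 or 3 or innervated control 1 (0.0748 to 0.0991).

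The thioesterases release the fatty acid from coenzyme A again, Acot2 in the mitochondrial matrix and Acot13 at mitochondria and in the cytosol, and they moved apart. Acot2 signals were 7538, 4569 and 4030.3 in denervated mutant muscle, against 1906 and 2096 in innervated mutant muscle. Acot2 signals in denervated control muscle were 2254, 2723 and 3139.9, against 2205, 2098 and 2647 in innervated control muscle. The denervated mutant arrays were the highest, array 1 most of all, and the control groups overlapped. Acot2 rose 2.58-fold in mutant muscle, a log2 change of 1.37 ± 0.25 (SE, adjusted p = 0.00124), and its control log2 change was 0.22 ± 0.22 (SE, adjusted p = 0.506), which was 1.05 (adjusted p = 0.00532) with spike-in centring. Acot13 fell, with log2 changes of -1.0 ± 0.27 (SE, adjusted p = 0.0142) in mutant and -1.40 ± 0.24 (SE, adjusted p = 0.00063) in control muscle, and had -0.53 and -0.57 with spike-in centring, where neither passed. Without innervated mutant 2 the mutant change of Acot13 was -0.65 (adjusted p = 0.183).

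Pdk4 phosphorylates and so shuts pyruvate dehydrogenase, and Ucp3 is the muscle member of the uncoupling protein family; both are known targets of fatty acid signals in muscle. Pdk4 signals were 88911, 73419 and 65022 in denervated mutant muscle, against 139711 and 72703 in innervated mutant muscle. Pdk4 signals in denervated control muscle were 119692, 93197 and 80004, against 109217, 124309 and 95553 in innervated control muscle. Groups overlapped in both genotypes, and the innervated mutant arrays differed most. Pdk4 had log2 changes of -0.42 ± 0.25 (SE, adjusted p = 0.234) in mutant and -0.18 ± 0.22 (SE, adjusted p = 0.596) in control muscle, with 0.05 and 0.65 (adjusted p = 0.0411) after spike-in centring. Without innervated mutant 2 the mutant change was -0.89 (adjusted p = 0.026). Its isoform Pdk2, which is not a member of the set, fell in both genotypes, and the ratio of Pdk4 to Pdk2 on the same array was higher after denervation by 0.75 (0.54 in mutant and 0.95 in control muscle; exact permutation, two-sided p = 0.035, adjusted 0.0583), with 0.42 without innervated mutant 2.

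Ucp3 signals were 11081, 9783 and 6640.3 in denervated mutant muscle, against 30535 and 19464 in innervated mutant muscle. Ucp3 signals in denervated control muscle were 7345, 6410.1 and 7585, against 20284, 24229 and 15922 in innervated control muscle. No denervated array reached the innervated ones. Ucp3 was 2.72-fold lower in mutant muscle, a log2 change of -1.44 ± 0.25 (SE, adjusted p = 0.000876), and 2.79-fold lower in control muscle, a log2 change of -1.48 ± 0.22 (SE, adjusted p = 0.000231), and lower with spike-in centring too, at -0.97 and -0.65.

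**Figure D3:**
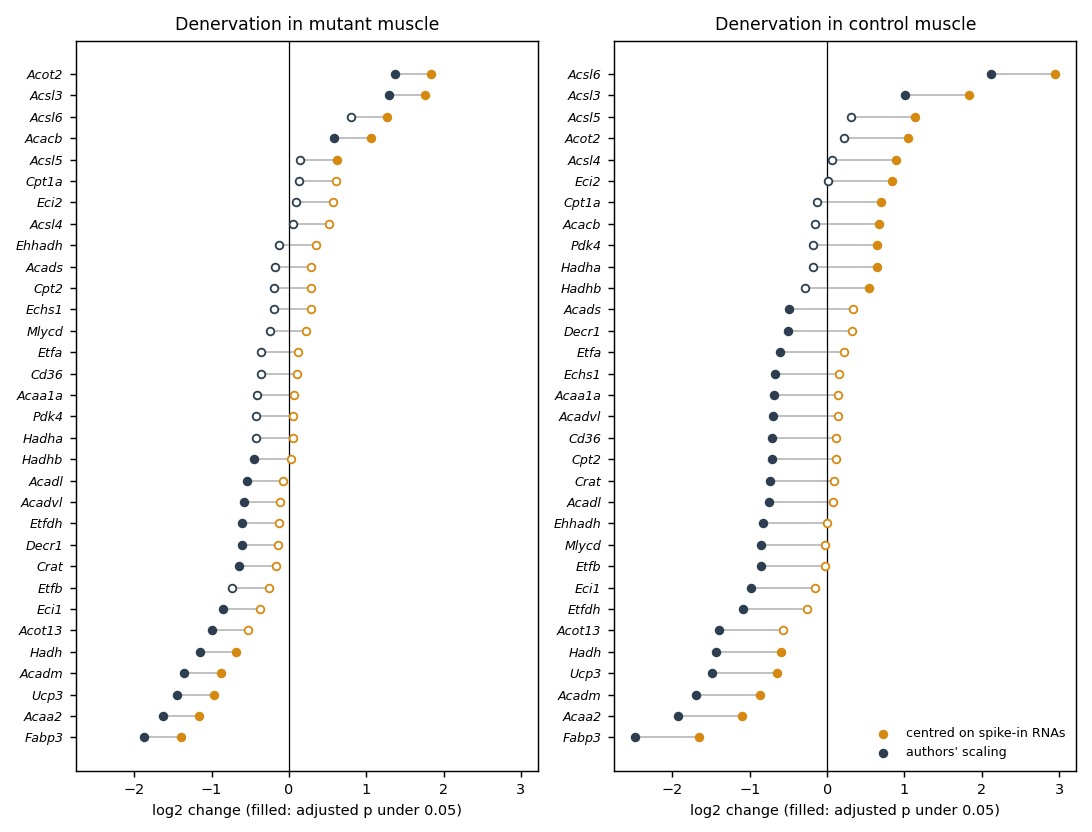
Log2 change with denervation (x axis) for each of the 32 genes (y axis) in mutant muscle (left) and control muscle (right), with spike-in centring (orange) and as scaled by the authors (dark); filled points passed the test and the vertical line marks 0. Centring moves every gene to the right by about the same amount within a genotype, so 10 of the 21 genes called lower in control muscle cross 0, while Fabp3, Acaa2, Acadm, Hadh and Ucp3 stay below it in both genotypes.

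The ratio of Cd36 to Fabp3 gave the widest shift of the 5 ratios examined. It was higher after denervation by a log2 difference of 1.64 (1.51 in mutant and 1.77 in control muscle; exact permutation, two-sided p = 0.005, adjusted 0.0125). Leaving out single arrays gave 1.36 (without innervated mutant 2) to 1.92 (without innervated mutant 1). The call was lost in 2 of those runs (exact permutation, adjusted p up to 0.05). Over all 14 alternatives the lowest difference was 1.02.

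**Figure D4:**
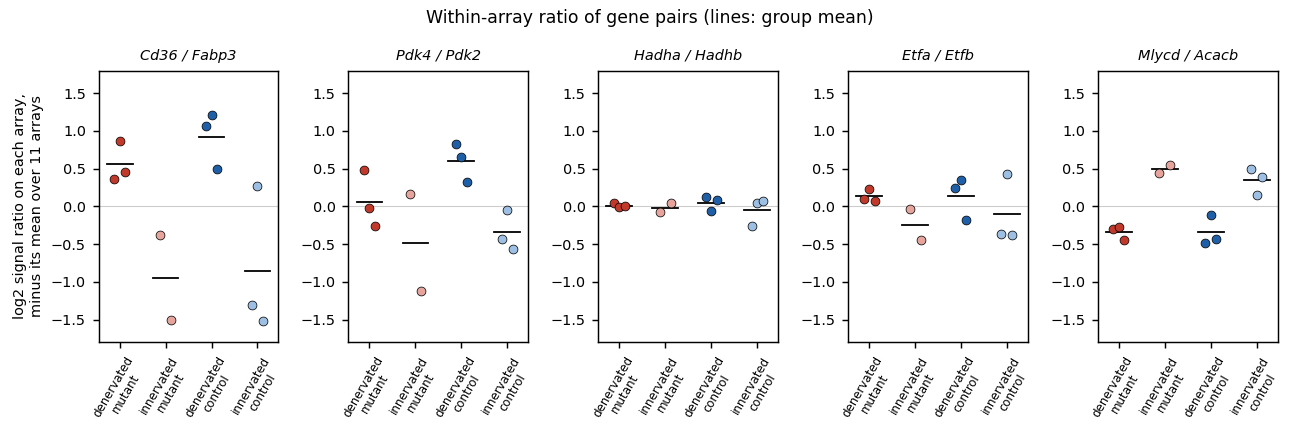
Log2 ratio of the signals of 2 genes on the same array, minus its mean over the 11 arrays (y axis), by group (x axis) for 5 gene pairs; points are arrays and lines are group means. Cd36 over Fabp3 is higher and Mlycd over Acacb lower on denervated arrays of both genotypes, with differences of 1.64 and -0.76, and the difference of Hadha over Hadhb is 0.06.

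Few of the genes passed between the genotypes. In denervated muscle 1 of the 32 genes was higher in mutant than in control (1.04% of all genes were called higher) and 1 was lower (1.12% of all genes). All mutant arrays were above all control arrays for 15 of the 32, against 12.7% of all genes, and below them for 2, against 10.4%. The log2 difference was positive for 26 of the 32, with a median of 0.30 against 0.01 for all genes, and 14 had an unadjusted p under 0.05, 13 of them higher, against 11.3% of all probe sets in either direction. With spike-in centring the median was -0.077, and that of all genes -0.37, so the signs turn with the scaling while the distance of 0.29 from all genes does not. The gene that was lower is Acsl6. Its signals of 7368, 12827 and 15246 in denervated mutant muscle lay all below the 23113, 53447 and 34999 of denervated control muscle, a 3.1-fold difference with a log2 difference of -1.63 ± 0.28 (SE, adjusted p = 0.00918). It passed in all 21 alternative analyses, with log2 differences of -2.01 to -1.22 and adjusted p of 0.000361 to 0.0475. The dim second probe set did not pass (adjusted p = 0.325). Acot2 was the gene that was higher, at 7538, 4569 and 4030.3 in denervated mutant against 2254, 2723 and 3139.9 in denervated control muscle, a log2 difference of 0.95 ± 0.22 (SE, adjusted p = 0.048). That call is close to the threshold and held in 5 of 21 alternatives, with adjusted p of 0.0287 to 0.212; it was lost without denervated mutant 1 (log2 difference 0.68) or 2, either innervated mutant array, any denervated control array, or innervated control 1 or 3. Mlycd and Cpt2 read 6559, 5984 and 6308 and 13299, 15739 and 16100.1 in denervated mutant muscle, against 4119.6, 4245 and 4742 and 10062, 10549 and 12275 in denervated control muscle, without overlap, with log2 differences of 0.52 ± 0.13 (SE, adjusted p = 0.0779) and 0.46 ± 0.14 (SE, adjusted p = 0.162); Mlycd passed without innervated control 2 (adjusted p = 0.0341). Acacb (log2 difference 0.52), Fabp3 (0.78) and Cd36 (0.42) also had all mutant arrays above and did not pass.

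**Figure D5:**
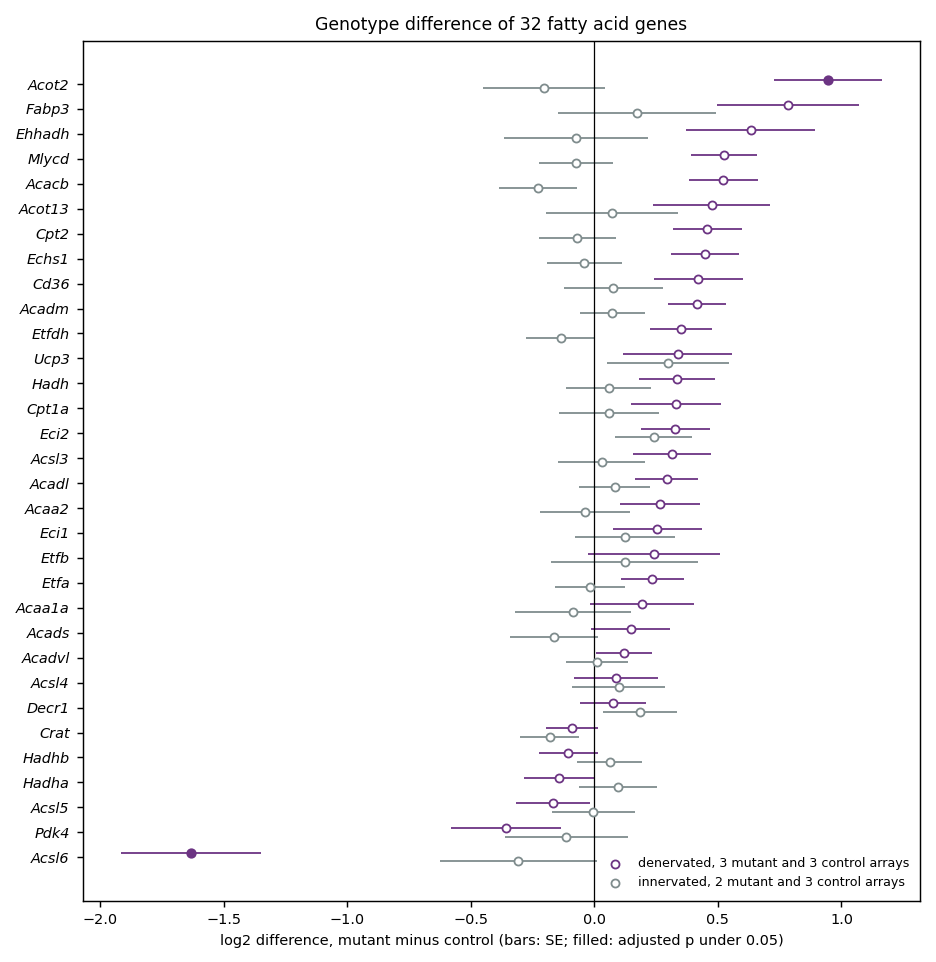
Log2 difference between mutant and control muscle (x axis) for each of the 32 genes (y axis), in denervated and in innervated muscle; points are limma estimates and bars standard errors, and filled points passed the test. Acsl6 at -1.63 and Acot2 at 0.95, both in denervated muscle, are the genes that passed, and most other denervated estimates lie right of 0, a side that turns for many with spike-in centring (median 0.30 as scaled, -0.077 centred).

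In innervated muscle no gene of the 32 passed between the genotypes, and limma called 0% of all genes and 0 of 26170 probe sets. At an unadjusted p under 0.05 there were 1030 probe sets and 0 of the 32. The smallest p values belonged to Eci2, Crat and Acacb, with log2 differences of 0.24 ± 0.16 (SE, adjusted p = 0.998), -0.18 ± 0.12 (SE, adjusted p = 0.998) and -0.23 ± 0.16 (SE, adjusted p = 0.998). With 2 innervated mutant arrays the test has little reach here. All mutant arrays lay above all control arrays for 1 of the 32 (7.62% of all genes) and below for 5 (8.23% of all genes).

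Whether denervation acted differently in the genotypes was tested as an interaction, that is, the mutant change with denervation less the control change. No gene of the 32 passed, where 0.262% of all genes did, and 7 had an unadjusted p under 0.05, 6 of them positive, against 7.71% of all probe sets in either direction. Acsl6 had an interaction of -1.32 ± 0.43 (SE, adjusted p = 0.366), Acot2 of 1.15 ± 0.33 (SE, adjusted p = 0.276) and Acacb of 0.75 ± 0.21 (SE, adjusted p = 0.265). Genes called in a single genotype, such as Cd36, Cpt2, Mlycd or Acacb, are therefore not shown to respond differently. The 2 denervation comparisons share no arrays.

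Other genes of the pathway were read from lists chosen for their known roles, and their directions hold as scaled by the authors. Of 10 other uptake and carrier genes tested, 4 fell in mutant and 6 in control muscle and none rose, with Lpl, the lipase that frees fatty acids from lipoproteins, at -0.68 and -1.23, the transporter Slc27a1 at -0.71 and -1.66, Got2, an aminotransferase also described as a fatty acid binding protein, at -0.84 and -0.88, and the carnitine transporter Slc22a5 at -0.61 and -0.69. With spike-in centring Slc22a5 turned to 0.13 in control muscle, with 0 fallen and 1 risen of the 10 in mutant and 1 fallen and 3 risen in control muscle. Of 15 other mitochondrial genes, 7 fell and 1 rose in mutant and 6 fell and 2 rose in control muscle. The phosphatase Pdp1, which switches pyruvate dehydrogenase on, had log2 changes of -2.16 and -2.08, the kinases Pdk1 and Pdk2 -0.98 and -1.40, and -0.97 and -1.13, and the thioesterase Acot9 rose by 0.92 and 1.16. Of 14 other peroxisomal genes 6 fell in mutant and 7 in control muscle and none rose, among them the fatty acyl transporter Abcd2 (-1.58 and -2.55), Phyh (-0.73 and -0.90), Nudt19 (-0.81 and -0.84) and Nudt7 (-0.77 and -1.16). With spike-in centring the counts were 1 fallen and 2 risen in mutant and 2 fallen and 8 risen in control muscle for the mitochondrial list, and 1 and 1, and 1 and 5, for the peroxisomal list.

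Of 15 regulators of lipid use, 10 fell in each genotype and none rose, and with spike-in centring 6 fell in each, with 1 risen in mutant and 2 in control muscle. Perm1, a muscle regulator induced by PGC-1, read 165.2 ± 44.1 in denervated against 25768 ± 5380.2 in innervated mutant muscle (SD, n = 3 and 2), and 576.6 ± 166 in denervated against 30794 ± 5247 in innervated control muscle (SD, n = 3 each). Its denervated mutant mean is no higher than signals of the trp control probe sets. Ppara, the fatty acid sensing receptor, read 2833 ± 860 in denervated against 5110.0 ± 585 in innervated mutant muscle, and 1106 ± 217 in denervated against 7346 ± 863 in innervated control muscle (SD, same n). Its log2 changes were -0.88 in mutant and -2.73 in control muscle, and in denervated muscle it was 2.50-fold higher in mutant than in control (limma adjusted p = 0.00606). Rxrg, a partner receptor, had -3.04 and -2.39, and Prkaa2, a catalytic subunit of AMP-activated kinase, -1.04 and -1.42. Lpl was also higher in denervated mutant than in denervated control muscle (69649.7 ± 3188 against 47919 ± 5756, SD, n = 3 each, adjusted p = 0.0473), a call lost with spike-in centring (adjusted p = 0.59), and Perm1 was lower there (adjusted p = 0.00268). The other genes of the 5 lists did not pass between genotypes. In the interaction 1 of the 15 regulators passed, as positive, where 0.262% of all genes passed in either direction. The largest interaction among the regulators was 1.84. No gene of the other lists of this kind passed it, and with spike-in centring no regulator did. Of 15 citrate cycle enzymes, 13 fell in mutant and 14 in control muscle and none rose, including Sdhd (-1.26 and -1.25), Cs (-0.96 and -1.10), Idh3a (-1.91 and -1.55) and Sdhc (-0.79 and -0.89). With spike-in centring 2 fell and 1 rose in mutant, and 1 fell and 1 rose in control muscle.

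The marker lists put these counts beside the makeup of the muscle. Of 14 muscle fibre markers 13 fell in mutant and 11 in control muscle, and with spike-in centring 3 and 0. Of 16 macrophage and leukocyte markers 13 rose in mutant and 9 in control muscle, and all 16 rose in both with spike-in centring. Of 5 adipocyte markers tested 1 fell in mutant and 2 in control muscle, and with spike-in centring none fell and 1 rose, in control muscle. Of 7 Schwann cell markers 2 fell and 1 rose in each genotype, and with spike-in centring 2 fell and 1 rose in mutant and 1 fell and 2 rose in control muscle. The summed signal of the adipocyte markers was 179620 to 206328 on denervated against 306707 to 342874 on innervated mutant arrays, and 186199 to 211929 against 281394 to 338021 on control arrays, most of it from Car3, a carbonic anhydrase that muscle fibres also make. That of the Schwann cell markers was 13516 to 17102 on denervated against 31973 to 34143 on innervated mutant arrays, and 11058 to 13387 against 22588 to 26470 on control arrays. Adipoq, the defining adipocyte gene, read 3052 ± 1914 in denervated against 3911 ± 1292 in innervated mutant muscle (SD, n = 3 and 2), and 3529 ± 3903 in denervated against 2112 ± 519 in innervated control muscle (SD, n = 3 each), and its groups overlapped in both genotypes. Between genotypes in denervated muscle 1 of 14 muscle fibre markers was lower in mutant (1.12% of all genes) and no other marker passed. None passed in innervated muscle, where 7 of 16 macrophage and leukocyte markers had all mutant arrays below all control arrays (8.23% of all genes) and 1 above (7.62%). In the interaction 1 muscle fibre marker was lower and 1 macrophage and leukocyte marker higher (0.262% of all genes).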

How the data were processed

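The deposited table holds Affymetrix probe set signals, intensity values on a linear scale, which the authors had scaled to a common 2% trimmed mean of 2500 per array, as the values themselves show; the software was not given in the sources used here. It holds 45101 probe sets, and groups were taken from the sample titles. Array medians were 442.5 to 604.6. Precision is limited by how few arrays each group has.

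Signals were used as log2(value + 16). Probe sets above their array's median on at least 2 arrays were kept, and the 64 control probe sets were left out, leaving 26170. The annotation gave 1 symbol to 34958 probe sets and several to 932, and did not list 9211; no gene was named from a probe set with several symbols. All 32 genes measured matched the reference gene table. A group-means model was fitted to the 11 arrays with limma 3.58.1 in R 4.3.3 (eBayes with trend, Benjamini-Hochberg adjustment over probe sets, threshold 0.05) for 5 comparisons. Ratios within an array used exact permutation within genotype. The code was tested on simulated data.

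Members and lists were chosen with earlier results of these data known. Every gene is named by step; per-array values are given for the 6 smallest p of each denervation comparison, the 3 smallest of each other comparison and genes that define a step, and from each further list up to 4 genes by the smallest p in control muscle. Deviations of equally numbered denervated and innervated arrays correlated at 0.11, 0.22 and 0.30 in control and at 0.03 and 0.05 in mutant muscle. Unequally numbered arrays were not correlated, and the sample titles state no pairing, so a pairing by number is not established. Blocked fits were run only as alternatives. Alternatives covered scaling, pseudocount, filter, probe set choice, variance trend, block and leaving out single arrays. Promoters are from RefSeq, GRCm38.p6.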

Additional observations from a re-analysis of the deposited data

How the results depend on the processing

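Scaling decided most. With spike-in centring 5 genes were lower and 5 higher in mutant muscle, at a median log2 change of 0.056, where 1017 of all probe sets were called lower and 6969 higher. In control muscle 5 were lower and 11 higher, at a median of 0.14, where 15569 probe sets were called, 14851 of them higher. Among genes called with either scaling, the log2 change turned in mutant muscle for Hadhb (0.023) and in control muscle for Cd36 (0.12), Cpt1a (0.70), Cpt2 (0.11), Crat (0.094), Acacb (0.67), Acadvl (0.13), Acadl (0.073), Acads (0.34), Etfa (0.22), Hadha (0.65), Hadhb (0.55), Echs1 (0.15), Decr1 (0.32), Acaa1a (0.14) and Pdk4 (0.65). With median scaling 5 genes were lower in mutant muscle, with 4 higher, at a median of -0.12. Between genotypes in denervated muscle the median was 0.40 with median scaling and -0.077 with spike-in centring, which called 1396 probe sets; in innervated muscle it was -0.10 with median scaling. The interaction median was 0.50 with median scaling, -0.082 with spike-in centring and 0.12 with the mean of all probe sets of a gene. The cause was not tested.

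The count of genes higher in denervated mutant muscle was 0 with quantile normalization, spike-in centring, no filter, the mean of probe sets, no variance trend and the replicate block in all arrays. Without the trend 279 probe sets were called between genotypes in denervated muscle, 3 in innervated muscle and 10 for the interaction. A smaller or a larger pseudocount changed no call. Other settings also moved calls near the threshold: Hadhb in mutant muscle was lost with no filter (adjusted p = 0.0693), the mean of probe sets (0.0814) and no trend (0.0568), while Cd36 passed there with the mean of probe sets (0.00631), and in control muscle Acads and Etfb were lost without the trend (0.0594 and 0.0633) and with only the arrays of the comparison (0.0916 and 0.0584), and Ehhadh with no filter (0.0515) or those arrays only (0.0551). With those arrays only, Acsl6, Etfb and Hadha passed in mutant muscle (0.0409, 0.0116 and 0.0436), and Hadha also with quantile normalization (0.0434).

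Leaving out single arrays gave 4340 to 8081 probe sets for denervation in mutant muscle, 0 to 2 genes higher and 228 to 639 probe sets between genotypes in denervated muscle, 0 to 12 probe sets in innervated muscle, and an interaction median of 0.17 to 0.32 with 16 to 108 probe sets. The ratios ranged over 1.36 to 1.92 (Cd36 to Fabp3), 0.42 to 1.07 (Pdk4 to Pdk2), -0.82 to -0.73 (Mlycd to Acacb) and 0.21 to 0.44 (Etfa to Etfb). The calls of Cd36 to Fabp3 and of Mlycd to Acacb were each lost in 2 of these runs.

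With the replicate block in the 6 control arrays alone, chosen after seeing the data, 21 genes were lower and 2 higher, and no call of the 32 changed. With the block in all arrays the Acot2 genotype call was lost (adjusted p = 0.0777), and it changed no other call. The ratios of Cpt1a to Cpt1b and Acsl4 to Acsl1 were not run, since a gene of each pair had no probe set of its own.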

Other observations

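Innervated arrays of one genotype differed from each other for some of these genes, a pattern seen after the values were known. On innervated control 2, Fabp3 read 0.471 times the mean of innervated control 1 and 3, Etfb 0.478 times, Acot13 0.525 times and Eci1 0.646 times. On innervated mutant 1 the same genes read 0.559, 0.64, 0.611 and 0.765 times their value on innervated mutant 2. Ucp3, Cpt1a, Cd36 and Pdk4 differed the other way, at 1.34, 1.22, 1.52 and 1.21 times on innervated control 2, and 1.57, 1.57, 1.22 and 1.92 times on innervated mutant 1.

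Over all 12214 genes tested, 22.1% read under 0.75 times on innervated control 2 and 18.1% on innervated mutant 1, and 8.42% did so in both; of the 32 genes these were 5, 4 and 3, the 3 being Fabp3, Etfb and Acot13. The groups hold 3 and 2 arrays, no test was run, and these differences lie within groups that the comparisons above average.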
